A study of Mus musculus with 12 samples.

Results

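Genes of the lysosome were followed in epididymal white adipose tissue (eWAT) of mice on 4 diets. The set held 49 genes, listed by name: 6 lysosomal membrane proteins, 13 proteases and partners, 11 glycosidases, 6 lipid-handling proteins, and 13 V-ATPase genes. Of the last, 5 belong to the membrane sector V0 and 8 form the V1 class, in which the accessory protein Atp6ap1 was counted. All 49 were found among 22969 genes, and all 49 were among the 12787 genes tested. The deposited gene names located 47 of them. Mcoln1 was filed under the name of its neighbour Pnpla6 and Glb1 under that of Tmppe, and both were found by their transcript identifiers.

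The lysosome is the acidic compartment in which cells break down proteins, glycans and lipids taken up from outside or delivered by autophagy. The V-ATPase is a rotary proton pump that uses ATP, bound on its cytosolic V1 sector, to drive protons through its membrane-embedded V0 sector, and most lysosomal hydrolases work only at the acidic pH it sets up. In obese fat, macrophages that take up lipid from adipocytes are known for a high content of lysosomal enzymes.

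Male C57BL/6J mice, 21 weeks old, had received for 16 weeks a normal diet (ND), a high-fat diet (HFD), the HFD to which an ethanol extract of chrysanthemum leaves (CLE) was added at 1.5% by weight, or the HFD to which the flavonoid luteolin (LU) was added at 0.003% by weight. The comparisons ask what the HFD did to the tissue and what each supplement did on top of the HFD, so the CLE and LU mice also ate the HFD and are compared with the same 3 HFD libraries. Each group had 3 libraries, each of 1 separate mouse that the study chose as representative of a larger group, and values below are always given in the order ND mice 2, 3 and 4, HFD mice 12, 15 and 18, CLE mice 2, 4 and 11, and LU mice 2, 3 and 8. The levels are FPKM, the number of sequenced fragments scaled to transcript length and library size, summed over the transcripts of a gene. They are given without read counts, and sequencing depth is therefore unknown. Differences are log2 fold changes of FPKM + 1 from limma, which understate the change of genes at low FPKM, and a gene is called higher or lower at a Benjamini-Hochberg adjusted p under 0.05 over all genes tested and a fold change over 1.5. An exact permutation test of 3 against 3 mice cannot give a two-sided p below 0.1, so no such test was used.

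The libraries of a group correlated across genes at r between 0.979 and 0.992, and the totals over genes lay between 436676 and 456480 FPKM. The labels of 4 libraries, ND 3, ND 4, CLE 4 and LU 2, carry a letter R whose meaning is not given, and no HFD library carries it. In the deposited table these libraries alone have, after the mouse number, a shared figure written like a date. Of 8 adipocyte markers 8 were found, with summed levels of 15740 to 27677 FPKM in the 12 libraries. The tissue was thus rich in adipocyte RNA, while the fat depot named in its label was not tested. Of 4 epididymis markers, Lcn5 and Spag11a were at 0 in every library, while Crisp1 and Adam7 were present in some. The 4 summed to 0.388 to 5.13 FPKM in the ND, 0.0487 to 0.364 in the HFD, 0 to 0.332 in the CLE and 0.0508 to 3.31 in the LU mice, and their part in the differences was not tested. Of 3 liver markers, only Alb was called, lower with the HFD than with the ND and higher with CLE than with the HFD. Mean Alb levels were 14.7 FPKM in the ND, 2.60 in the HFD, 9.26 in the CLE and 3.87 in the LU mice, and their part was not tested either. All 10 macrophage markers tested were called higher in HFD than in ND mice, and their summed level was 334 to 507 FPKM in the ND, 2339 to 2701 in the HFD, 585 to 879 in the CLE and 927 to 1059 in the LU mice. These are values of whole tissue, in which more cells of a type and more RNA per cell cannot be told apart.

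The HFD was accompanied by a broad rise of lysosomal genes, and many of them were lower in both supplemented groups than in the HFD group. Between HFD and ND mice, 32 of the 49 genes were called higher and 0 lower, while 14.9% of all genes tested were called higher. Every one of the 49 had a higher mean in HFD mice, with a median log2 fold change of 0.94 beside -0.02 for all genes tested. In 44 of the 49, each HFD mouse lay above each ND mouse, against 30.2% of all genes tested. Compared with HFD mice, 30 of the 49 were called lower in CLE mice, where 10.2% of all genes tested were called lower, and 23 were called lower in LU mice, where the share of all genes was 7.67%. The medians were -0.67 for CLE and -0.55 for LU, beside 0.01 and 0.03 for all genes. Each CLE mouse lay below each HFD mouse in 42 genes, beside 26.2% of all genes tested, and each LU mouse did so in 39, beside 22.1%. The same 3 HFD libraries enter all 3 comparisons, so these are not independent of each other. Because the 49 genes were chosen with earlier results of these data known, their shares are not independent of that choice either.

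**Figure D1:**
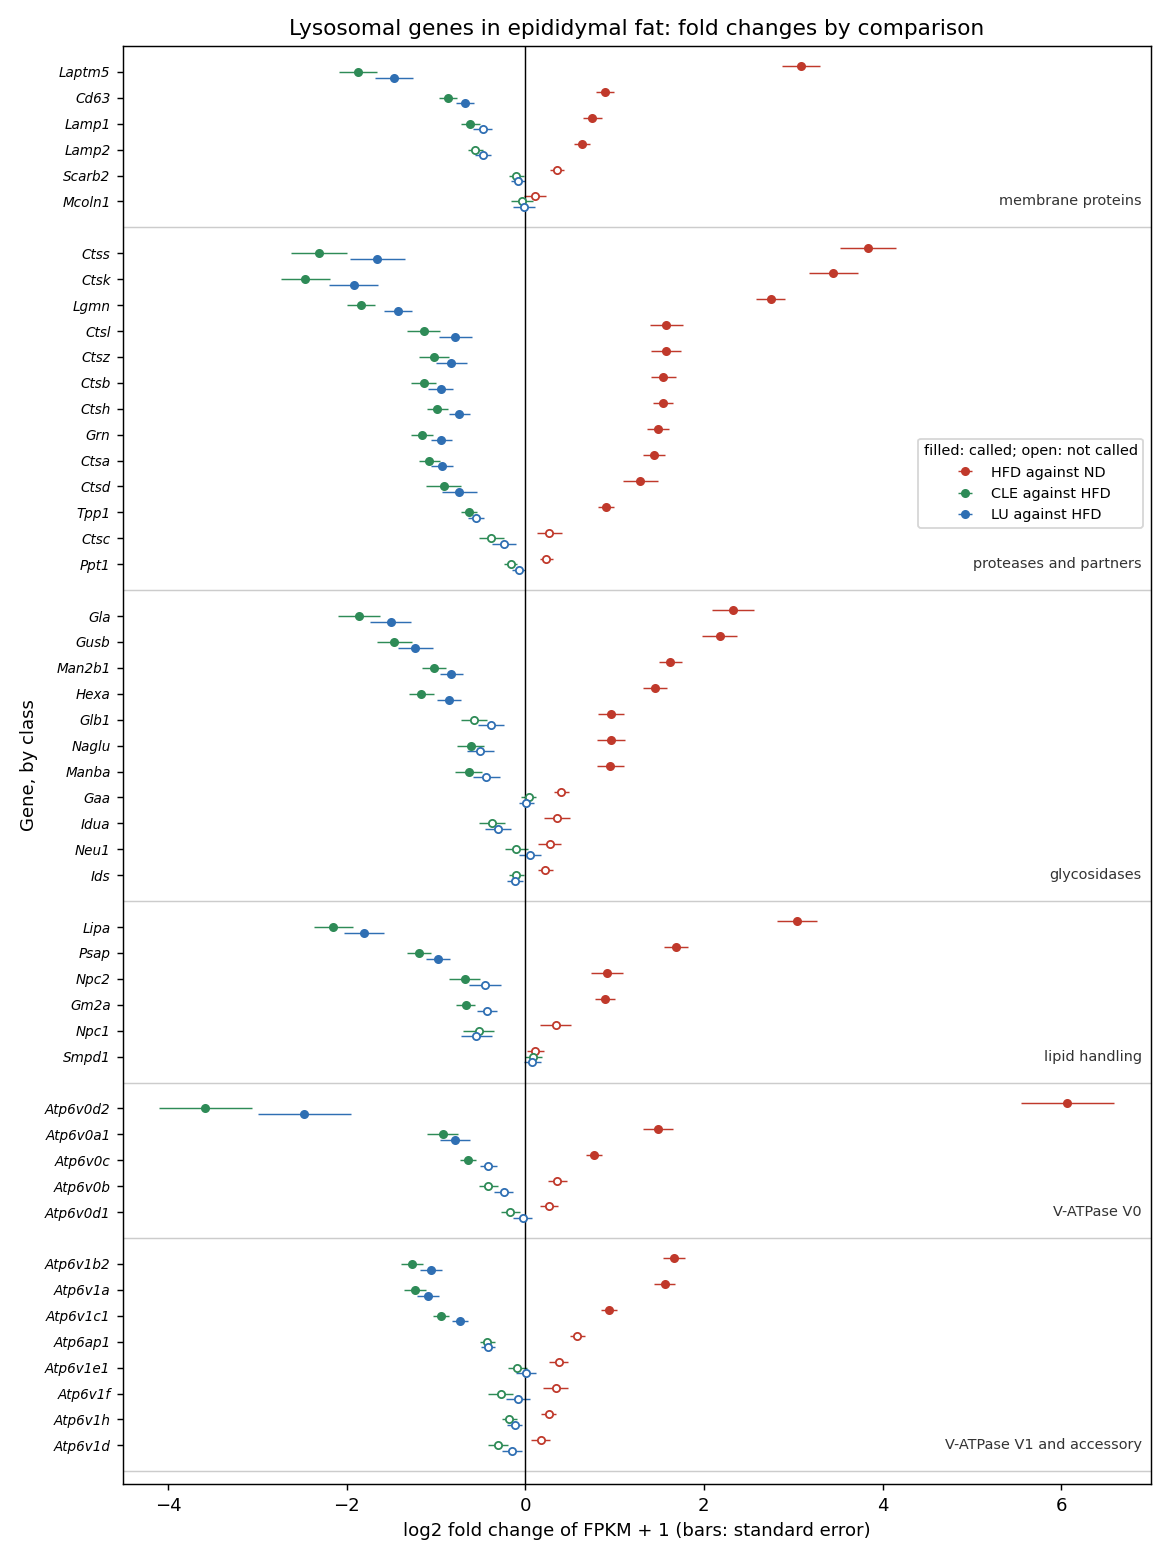
Log2 fold change (FPKM + 1) with its standard error for all 49 genes, grouped by class and ordered within a class by the change in HFD against ND mice; filled points were called and open points were not. The red points of HFD against ND all lie right of 0, from 0.11 for Mcoln1 to 6.07 for Atp6v0d2, while most points of CLE and LU against HFD lie left of 0.

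The rise was uneven between the classes. In HFD against ND mice the median log2 fold change was 1.54 for proteases and partners, 0.96 for glycosidases and 0.91 for lipid handling. It was 0.77 for V0, 0.70 for the membrane proteins and 0.48 for the V1 class with Atp6ap1. The genes called higher numbered 11 of 13 proteases and partners, 7 of 11 glycosidases and 4 of 6 lipid-handling genes. They also included 3 of 5 V0 genes, 4 of 6 membrane proteins and 3 of 8 genes of the V1 class. The 3 genes with the highest levels were Psap, Ctsd and Ctsb in each of the 4 groups, with HFD means of 2649, 1792 and 1169 FPKM. The difference between classes was not tested.

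Many lysosomal genes carry in their promoters the palindromic word TCACGTGA or its core CACGTG, which reads the same on both strands and is known to be bound by transcription factors of the TFEB family. In the RefSeq promoter windows of GRCm38.p6, from 250 bases before to 50 after the start, 42 of the 49 genes were matched and Ctsb, Ctsh, Npc1, Atp6v0d2, Atp6v1b2, Atp6v1c1 and Atp6v1h were not. The core was present in 13 of the 42 (31.0%) and in 8.09% of 27025 genes in the reference. The word of 8, which contains the core, was present in 6 of the 42 (14.3%) and in 1.12% of all genes. Of the 27 matched genes called higher with the HFD, 9 held the core and 4 the word of 8, and of the 15 matched genes not called, 4 and 2 did. The stretches around the word of 8, in capitals, are shown for the 6 genes that hold it, because 4 of these (Ctsa, Ctsd, Gla and Atp6v1a) were called higher with the HFD and the others (Mcoln1 and Atp6v0d1) were not:
Ctsa: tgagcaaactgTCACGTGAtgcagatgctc
Ctsd: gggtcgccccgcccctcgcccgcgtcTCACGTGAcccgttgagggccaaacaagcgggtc
Gla: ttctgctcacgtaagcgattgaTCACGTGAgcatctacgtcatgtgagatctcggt
Atp6v1a: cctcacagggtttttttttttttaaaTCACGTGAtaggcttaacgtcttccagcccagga
Mcoln1: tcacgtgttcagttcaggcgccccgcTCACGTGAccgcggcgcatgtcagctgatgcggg
Atp6v0d1: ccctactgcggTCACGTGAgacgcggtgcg
They lie at chr2:164833749-164833778 on the plus strand, chr7:142387893-142387952 on the minus strand, chrX:134601200-134601255 on the minus strand, chr16:44139358-44139417 on the minus strand, chr8:3500447-3500506 on the plus strand and chr8:105566050-105566079 on the minus strand. Ctsa and Gla hold 2 copies of the word, of which 1 is shown. This word begins 13 bases before the start of Ctsa, 99 before that of Ctsd, 228 before Gla, 132 before Atp6v1a, 46 before Mcoln1 and 4 before Atp6v0d1. A match is a description of the letters and was not tested as a binding site.

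Among the membrane proteins, Laptm5, a transmembrane protein of lysosomes in blood-derived cells, rose the most with the HFD. Its levels were 42.9, 49.4 and 31.2 FPKM in the ND, 367, 320.3 and 373 in the HFD, 74.4, 87.2 and 136 in the CLE and 124, 112 and 146 in the LU mice. The HFD mice did not overlap with any other group, and the CLE and LU mice all lay above the ND mice. The log2 fold change was 3.09 ± 0.21 (SE, adjusted p = 1.00e-06) for HFD against ND. It was -1.87 ± 0.21 (SE, adjusted p = 8.03e-05) for CLE and -1.47 ± 0.21 (SE, adjusted p = 6.69e-04) for LU against HFD. Cd63, a tetraspanin of late endosomes and lysosomes, stood at 209, 212 and 199 FPKM in the ND, 411, 364 and 379.8 in the HFD, 189.9, 208 and 235 in the CLE and 219, 238 and 265 in the LU mice. Its CLE mice overlapped with the ND mice, at a log2 difference of 0.02 from ND (adjusted p = 0.921). Cd63 was called higher with the HFD at 0.89 ± 0.10 (SE, adjusted p = 2.69e-05) and lower with CLE at -0.87 ± 0.10 (SE, adjusted p = 8.62e-05) and with LU at -0.68 ± 0.10 (SE, adjusted p = 7.53e-04).

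Lamp1, a heavily glycosylated protein that lines the lysosomal membrane, was measured at 237, 320.1 and 263 FPKM in the ND, 457, 456 and 458 in the HFD, 302, 279 and 317 in the CLE and 327, 319.9 and 337 in the LU mice. The 3 HFD mice were nearly equal and stood above all others, for a log2 fold change of 0.75 ± 0.10 (SE, adjusted p = 1.19e-04). Lamp1 was called lower with CLE at -0.61 ± 0.10 (SE, adjusted p = 9.85e-04), a call that was lost without CLE mouse 4 (log2 fold change -0.56), and with LU its difference of -0.48 ± 0.10 (SE, adjusted p = 0.00615) stayed under the 1.5-fold threshold. Assembled variants of the annotated transcripts held 88.1% of the FPKM of Lamp1, and without them the HFD difference was 0.54 and neither call was made. Lamp2, its relative and a receptor of chaperone-mediated autophagy, was called higher with the HFD at 0.64 ± 0.09 (SE, adjusted p = 1.13e-04), but not without HFD mouse 12 (0.58, under the fold threshold). The Lamp2 call was also lost without assembled variants (0.33) and with its highest transcript alone (0.36). Each CLE and LU mouse lay below each HFD mouse for Lamp2. These differences of -0.56 with CLE (limma adjusted p = 6.21e-04) and -0.47 with LU (limma adjusted p = 0.00274) were under the fold threshold. Scarb2, which carries beta-glucocerebrosidase to the lysosome, differed by 0.35 ± 0.08 (SE, adjusted p = 0.00338) with the HFD, under the fold threshold.

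Mcoln1, a calcium channel of the lysosomal membrane, moved the least of the 49 genes and its promoter holds the word of 8. Its levels were 21.4, 16.9 and 21.7 FPKM in the ND, 21.4, 18.8 and 25.0 in the HFD, 19.5, 20.8 and 22.9 in the CLE and 21.0, 20.4 and 22.7 in the LU mice. The 4 groups overlapped, and the log2 fold change for HFD against ND was 0.11 ± 0.12 (SE, adjusted p = 0.460). The direction of Mcoln1 with CLE or LU against HFD turned with the scaling or with single libraries left out.

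**Figure D2:**
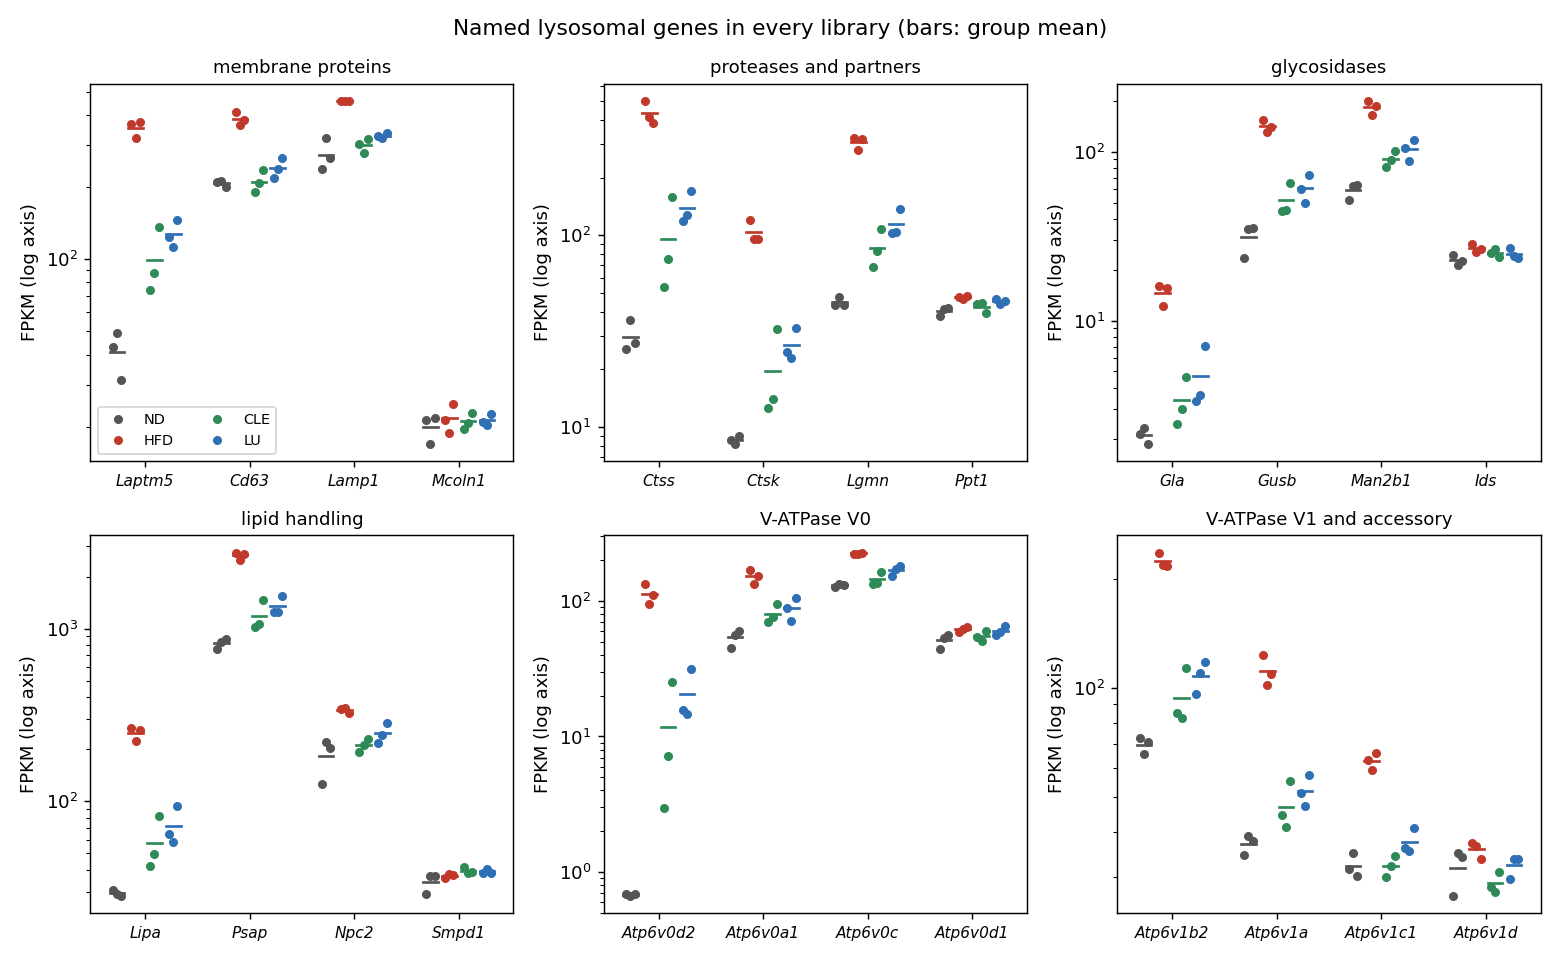
FPKM on a log axis in each of the 12 libraries for the 3 genes of each class with the largest change in HFD against ND mice and, at the right of each panel, the 1 with the smallest; bars are group means of 3 mice. Ctss, Lipa and Atp6v0d2 show the HFD mice far above the ND mice with CLE and LU between, while Mcoln1, Smpd1 and Ids stay within a narrow band.

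The proteases and their partners were the class with the most calls. Ctss, a cathepsin that trims the invariant chain of MHC class II molecules in antigen-presenting cells, had levels of 25.5, 36.1 and 27.3 FPKM in the ND, 504, 417 and 387 in the HFD, 53.8, 75.2 and 159 in the CLE and 118, 127 and 171 in the LU mice. All CLE and LU mice lay between the ND and the HFD mice without overlap with either, and CLE mouse 11 was within the range of the LU mice. Its log2 fold change was 3.84 ± 0.31 (SE, adjusted p = 2.76e-06) with the HFD, -2.31 ± 0.31 (SE, adjusted p = 2.38e-04) with CLE and -1.65 ± 0.31 (SE, adjusted p = 0.00307) with LU against HFD. Ctsk, the collagen-cleaving cathepsin known from osteoclasts, lies next to Ctss on chromosome 3 (GRCm38, chr3:95499256-95509362 and chr3:95526786-95556403, both on the plus strand). Ctsk was at 8.54, 8.15 and 8.97 FPKM in the ND, 119.9, 95.3 and 96.2 in the HFD, 12.6, 14.0 and 32.3 in the CLE and 24.5, 23.0 and 33.1 in the LU mice. It changed by 3.45 ± 0.27 (SE, adjusted p = 2.35e-06) with the HFD, and fell by 2.46 ± 0.27 (SE, adjusted p = 7.03e-05) with CLE and by 1.92 ± 0.27 (SE, adjusted p = 6.21e-04) with LU.

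Lgmn, the asparaginyl endopeptidase legumain that also activates cathepsins, was measured at 43.1, 47.7 and 43.3 FPKM in the ND, 322, 278 and 319 in the HFD, 68.1, 83.0 and 108 in the CLE and 103, 104 and 137 in the LU mice. Its groups of ND, HFD and supplemented mice were separate, with log2 fold changes of 2.75 ± 0.16 (SE, adjusted p = 6.16e-07) for HFD against ND, -1.84 ± 0.16 (SE, adjusted p = 2.41e-05) for CLE and -1.42 ± 0.16 (SE, adjusted p = 2.01e-04) for LU against HFD. The other 8 genes of this class were called higher with the HFD and formed a narrow band of log2 fold changes from 0.90 for Tpp1 to 1.58 for Ctsl and Ctsz. They were Ctsa, the carboxypeptidase that also protects beta-galactosidase and neuraminidase, the broadly expressed cysteine proteases Ctsb, Ctsh, Ctsl and Ctsz, the aspartic protease Ctsd, the tripeptidyl peptidase Tpp1, and Grn, the precursor of granulins. Of these, the most abundant was Ctsd at 497, 930.1 and 847 FPKM in the ND, 1904, 1744 and 1728 in the HFD, 927, 871 and 1066 in the CLE and 996, 1004 and 1232 in the LU mice.

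For Ctsd, ND mouse 2 stood well below the other ND mice, and the HFD mice lay above all others, for 1.29 ± 0.20 (SE, adjusted p = 2.34e-04). Ctsd was called lower with CLE at -0.91 ± 0.20 (SE, adjusted p = 0.00420) and with LU at -0.74 ± 0.20 (SE, adjusted p = 0.0166). The LU call was lost when HFD mouse 12, LU mouse 2 or LU mouse 3 was left out (log2 fold changes of -0.70, -0.69 and -0.69 and adjusted p = 0.0588, 0.0547 and 0.0583). Assembled variants held 44.6% of the FPKM of Ctsd, and without them the LU call was also lost (-0.60, limma adjusted p = 0.0577). The same held with its highest transcript alone (-0.59, limma adjusted p = 0.0633). A transcript of the overlapping gene Gm49369, filed under the name Ctsd and not summed into it here, was at 169, 125 and 161 FPKM in the HFD mice, 0.0023 FPKM or less in the ND mice and between 0.00046 and 40.0 FPKM in the CLE and LU mice, and how reads were split between both genes was not tested. Ctsb, at 332, 434 and 442 FPKM in the ND and 1230.4, 1103 and 1174 in the HFD mice, changed by 1.55 ± 0.14 (SE, adjusted p = 5.97e-06).

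Ctsc and Ppt1 were the genes of this class that were not called in any comparison. Ctsc, the dipeptidyl peptidase that activates serine proteases of granulocytes, was at 73.8, 88.3 and 60.5 FPKM in the ND and 83.1, 98.7 and 84.9 in the HFD mice, which overlapped (log2 fold change 0.27 ± 0.14 SE, adjusted p = 0.122). Ppt1, which removes fatty acids from proteins, was at 37.9, 41.2 and 41.8 FPKM in the ND, 48.0, 46.7 and 48.4 in the HFD, 43.8, 44.5 and 39.3 in the CLE and 46.5, 43.9 and 45.4 in the LU mice. Its HFD mice lay above the ND mice by 0.24 ± 0.08 (SE, adjusted p = 0.0229), which is under the fold threshold. Against HFD, 11 of the 13 genes were called lower with CLE and 10 with LU, Tpp1 being the gene called for CLE alone (-0.63 with CLE and -0.55 with LU). The difference between the supplements was not called for Tpp1, at -0.08 with a 95% interval of -0.28 to 0.12. Without assembled variants the CLE call of Tpp1 was lost (-0.56), as was the LU call of Ctsh with its highest transcript alone (-0.55).

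Of the glycosidases, Gla, the alpha-galactosidase that is deficient in Fabry disease, had the lowest mean level in each group and the largest change. It was measured at 2.13, 2.30 and 1.86 FPKM in the ND, 16.1, 12.1 and 15.6 in the HFD, 2.44, 2.99 and 4.67 in the CLE and 3.32, 3.62 and 7.10 in the LU mice. All HFD mice lay above all others, and LU mouse 8 stood apart from the other LU mice. Gla changed by 2.33 ± 0.23 (SE, adjusted p = 1.20e-05) with the HFD, -1.86 ± 0.23 (SE, adjusted p = 1.45e-04) with CLE and -1.51 ± 0.23 (SE, adjusted p = 9.68e-04) with LU against HFD. Gusb, the beta-glucuronidase that degrades glycosaminoglycans, was at 23.4, 34.6 and 35.3 FPKM in the ND, 155, 131 and 140.5 in the HFD, 44.6, 45.2 and 64.9 in the CLE and 59.8, 49.5 and 72.6 in the LU mice. The supplemented mice again lay between ND and HFD mice, and Gusb changed by 2.18 ± 0.19 (SE, adjusted p = 4.78e-06), -1.46 ± 0.19 (SE, adjusted p = 1.88e-04) and -1.23 ± 0.19 (SE, adjusted p = 0.00100) in the same 3 comparisons.

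Man2b1, the lysosomal alpha-mannosidase, was at 52.1, 62.3 and 63.5 FPKM in the ND, 200.3, 165 and 188 in the HFD, 81.0, 89.0 and 101 in the CLE and 106, 88.6 and 117 in the LU mice. Its 3 CLE and 3 LU mice were above the ND and below the HFD mice, with 1.62 ± 0.13 (SE, adjusted p = 2.42e-06) for HFD against ND, -1.02 ± 0.13 (SE, adjusted p = 1.52e-04) for CLE and -0.83 ± 0.13 (SE, adjusted p = 0.00102) for LU against HFD. Assembled variants held 72.5% of its FPKM, and without them the LU call was lost (-0.49). Hexa, the alpha chain of beta-hexosaminidase, changed by 1.45 ± 0.14 (SE, adjusted p = 7.47e-06) with the HFD and was called lower with both supplements. Glb1, the beta-galactosidase, Manba, the beta-mannosidase, and Naglu, which acts on heparan sulfate, were called higher with the HFD at 0.96, 0.95 and 0.96 (adjusted p = 2.47e-04, 3.05e-04 and 3.90e-04). Manba and Naglu were called lower with CLE at -0.63 and -0.61. Both calls were lost without CLE mouse 2 (-0.50 and -0.52) and under quantile normalization (-0.58 and -0.57). The call of Naglu was also lost without HFD mouse 18 (-0.56), without assembled variants (-0.57) and with its highest transcript alone (-0.47).

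Gaa, Idua, Ids and Neu1 were not called with the HFD. Ids, the sulfatase iduronate-2-sulfatase that works in the same glycan breakdown, had the smallest difference of the class, at 24.6, 21.4 and 22.6 FPKM in the ND, 28.6, 25.4 and 26.7 in the HFD, 25.1, 26.4 and 23.7 in the CLE and 26.8, 24.1 and 23.5 in the LU mice. The HFD mice lay above the ND mice by only 0.23 ± 0.09 (SE, adjusted p = 0.0479) and overlapped with the CLE and LU mice. Gaa, the acid alpha-glucosidase that breaks down glycogen, was not lower with CLE or LU than with the HFD alone. It was at 56.3, 60.8 and 63.0 FPKM in the ND, 82.2, 74.6 and 82.8 in the HFD, 80.6, 80.0 and 85.2 in the CLE and 79.5, 75.1 and 87.2 in the LU mice. Gaa was higher by 0.41 ± 0.08 (SE, adjusted p = 0.00202) in HFD than in ND mice, under the fold threshold, and its supplemented mice stayed at the HFD level, with differences of 0.04 for CLE (adjusted p = 0.771) and 0.01 for LU (adjusted p = 0.931). Idua, the iduronidase, and Neu1, the neuraminidase, had differences of 0.36 and 0.27 with the HFD (adjusted p = 0.0577 and 0.0879). Like Gaa, Neu1 was not lower with LU, at a difference of 0.05 from HFD that was not called.

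Among the lipid-handling genes, Lipa, the lysosomal acid lipase that hydrolyses cholesteryl esters and triglycerides, changed the most. Its levels were 30.6, 29.1 and 28.4 FPKM in the ND, 268, 223 and 259 in the HFD, 42.1, 49.3 and 82.0 in the CLE and 64.4, 58.6 and 93.8 in the LU mice. The ND mice were tightly grouped and the HFD mice stood apart from all others, at 3.04 ± 0.22 (SE, adjusted p = 1.42e-06) for HFD against ND. Lipa fell by 2.15 ± 0.22 (SE, adjusted p = 4.85e-05) with CLE and by 1.80 ± 0.22 (SE, adjusted p = 2.80e-04) with LU. Psap, the precursor of the saposins that help enzymes reach sphingolipids, was the most abundant gene of the set at 765, 832 and 866 FPKM in the ND, 2753, 2501 and 2694 in the HFD, 1026, 1059 and 1454 in the CLE and 1245, 1255 and 1546 in the LU mice. CLE mouse 11 and LU mouse 8 were the highest of their groups and still far below the HFD mice. Psap changed by 1.69 ± 0.13 (SE, adjusted p = 2.39e-06) with the HFD, -1.18 ± 0.13 (SE, adjusted p = 7.90e-05) with CLE and -0.98 ± 0.13 (SE, adjusted p = 5.00e-04) with LU against HFD.

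Npc2, the soluble carrier that binds cholesterol in the lysosomal lumen, was at 127, 219 and 204 FPKM in the ND, 343, 346 and 324 in the HFD, 192, 213 and 229 in the CLE and 219, 242 and 286 in the LU mice. ND mouse 2 was low, as for Ctsd, and Npc2 was called higher with the HFD at 0.92 ± 0.18 (SE, adjusted p = 0.00125) and lower with CLE at -0.68 ± 0.18 (SE, adjusted p = 0.0122), while its LU difference was -0.45 ± 0.18 (SE, adjusted p = 0.0821). Gm2a, the GM2 activator protein, was called higher with the HFD (0.90) and lower with CLE (-0.67), and its LU difference of -0.42 (adjusted p = 0.0150) was under the fold threshold. Npc1, the membrane protein to which Npc2 hands cholesterol, was not called in any comparison, but each CLE and LU mouse lay below each HFD mouse. Over 25 alternatives its log2 fold change against HFD was -0.63 to -0.47 with CLE and -0.63 to -0.50 with LU. With 1 library left out, it was called lower with CLE in 1 fit and with LU in 0. Npc1 was at 37.1, 20.3 and 22.9 FPKM in the ND, 34.1, 30.4 and 34.7 in the HFD, 21.7, 25.7 and 21.0 in the CLE and 23.3, 22.1 and 21.6 in the LU mice. Here ND mouse 2 was the highest of all 12 mice, so that ND and HFD mice overlapped (log2 fold change 0.34 ± 0.18 SE, adjusted p = 0.128), and the mean was 26.8 ± 9.04 (SD, n = 3) FPKM in the ND mice. Smpd1, the acid sphingomyelinase, was at 29.2, 37.2 and 36.8 FPKM in the ND, 36.0, 37.8 and 37.5 in the HFD, 41.5, 38.3 and 38.9 in the CLE and 38.3, 40.8 and 38.8 in the LU mice. Its differences were 0.11 ± 0.10 (SE, adjusted p = 0.338) with the HFD, 0.09 with CLE and 0.08 with LU, and it was the gene of the set with every CLE and LU mouse above every HFD mouse.

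In the V0 sector of the V-ATPase, the largest change of the whole set was that of Atp6v0d2, an isoform of the d subunit that is known from osteoclasts and macrophages (GRCm38, chr4:19876841-19922605). It was measured at 0.688, 0.669 and 0.694 FPKM in the ND, 134, 94.3 and 111 in the HFD, 2.97, 7.13 and 25.2 in the CLE and 15.6, 14.7 and 31.6 in the LU mice. The ND mice were all below 1 FPKM, each HFD mouse was above every CLE and LU mouse, and the CLE mice ranged widely. The log2 fold change was 6.07 ± 0.52 (SE, adjusted p = 3.82e-06) for HFD against ND, -3.58 ± 0.52 (SE, adjusted p = 3.71e-04) for CLE and -2.47 ± 0.52 (SE, adjusted p = 0.00528) for LU against HFD. The LU call was lost without the 4 libraries of the letter R, at a log2 fold change of -2.32 and an adjusted p of 0.0577. Its broadly expressed counterpart Atp6v0d1 was at 44.5, 53.1 and 55.8 FPKM in the ND, 58.5, 62.4 and 63.7 in the HFD, 54.2, 50.2 and 60.0 in the CLE and 56.2, 59.3 and 65.5 in the LU mice. Atp6v0d1 differed by 0.27 ± 0.10 (SE, adjusted p = 0.0507) with the HFD and was not called. As a share of the FPKM of both isoforms, Atp6v0d2 made up 1.52%, 1.25% and 1.23% in the ND, 69.6%, 60.2% and 63.6% in the HFD, 5.20%, 12.4% and 29.5% in the CLE and 21.7%, 19.8% and 32.5% in the LU mice. The HFD mice thus had more FPKM of d2 than of d1, and the mice of the other groups had less.

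**Figure D3:**
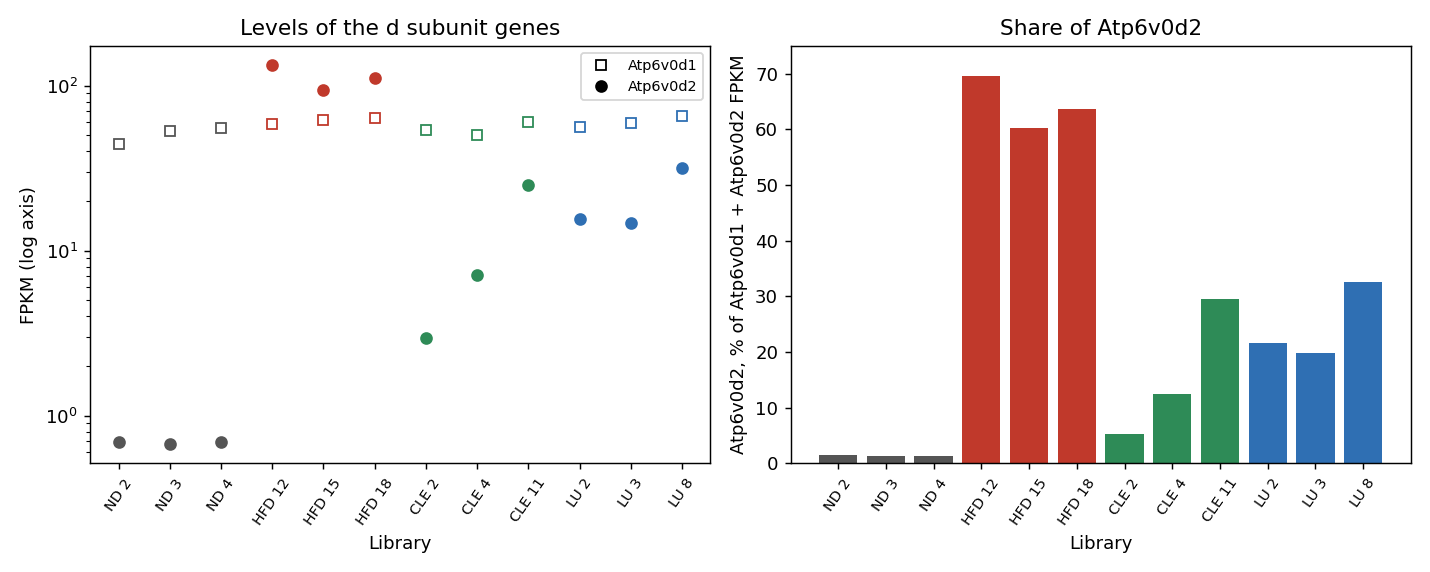
FPKM of the d subunit genes Atp6v0d1 (open squares) and Atp6v0d2 (filled circles) on a log axis in each library, and the share of Atp6v0d2 in the sum of both. Atp6v0d1 stays between 44.5 and 65.5 FPKM in all 12 libraries, while the share of Atp6v0d2 lies between 60.2% and 69.6% in the HFD mice and reaches at most 32.5% in the others.

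Atp6v0a1, one of the large a subunits that form the proton path, was at 44.8, 56.4 and 60.0 FPKM in the ND, 169, 134 and 152 in the HFD, 69.3, 75.5 and 94.7 in the CLE and 88.5, 70.6 and 106 in the LU mice. The HFD mice lay above all others and the CLE and LU mice above the ND mice, with 1.49 ± 0.17 (SE, adjusted p = 2.82e-05) for HFD against ND, -0.93 ± 0.17 (SE, adjusted p = 0.00155) for CLE and -0.79 ± 0.17 (SE, adjusted p = 0.00576) for LU against HFD. Atp6v0c, the proteolipid that makes up most of the rotating c ring, was the most abundant V0 gene at 127, 134 and 131 FPKM in the ND, 223, 221 and 227 in the HFD, 133, 135 and 163 in the CLE and 152, 173 and 179.6 in the LU mice. Its HFD mice were nearly equal and separate from the rest, for 0.77 ± 0.09 (SE, adjusted p = 5.27e-05), and it was called lower with CLE at -0.64 ± 0.09 (SE, adjusted p = 4.27e-04) but not with LU, where the difference of -0.41 ± 0.09 (SE, adjusted p = 0.00840) was under the fold threshold. Atp6v0b, another proteolipid of the ring, differed by 0.36 ± 0.11 (SE, adjusted p = 0.0165) with the HFD and was not called. The CLE calls were lost for Atp6v0a1 when its highest transcript alone was used (-0.97, adjusted p = 0.0575) and for Atp6v0c under quantile normalization (-0.58).

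In V1, the 3 genes called higher with the HFD were those of the A, B and C subunits. Atp6v1b2, the B2 isoform of the B subunit that forms the catalytic head together with the A subunit, was at 72.6, 65.7 and 70.7 FPKM in the ND, 236, 219 and 217 in the HFD, 85.0, 82.5 and 113 in the CLE and 95.9, 109.7 and 118 in the LU mice. All HFD mice were far above the others, and it changed by 1.67 ± 0.12 (SE, adjusted p = 1.43e-06) with the HFD, -1.26 ± 0.12 (SE, adjusted p = 3.34e-05) with CLE and -1.05 ± 0.12 (SE, adjusted p = 2.19e-04) with LU against HFD. Atp6v1a, the A subunit that hydrolyses ATP, was at 34.5, 39.1 and 37.7 FPKM in the ND, 123, 102 and 109 in the HFD, 44.5, 41.3 and 55.2 in the CLE and 51.2, 47.2 and 57.5 in the LU mice. Its changes of 1.56, -1.24 and -1.09 (adjusted p = 2.02e-06, 3.83e-05 and 2.01e-04) in the same comparisons were close to those of its partner Atp6v1b2. Atp6v1c1, the C subunit that is released when V1 comes off the membrane, was at 31.6, 35.0 and 30.2 FPKM in the ND, 63.0, 59.2 and 66.3 in the HFD, 30.0, 32.1 and 34.4 in the CLE and 36.1, 35.3 and 41.1 in the LU mice. Its CLE mice overlapped with the ND mice, and it changed by 0.94 ± 0.09 (SE, adjusted p = 1.02e-05) with the HFD, -0.94 ± 0.09 (SE, adjusted p = 3.70e-05) with CLE and -0.73 ± 0.09 (SE, adjusted p = 3.31e-04) with LU. Assembled variants held 41.9% of its FPKM, and without them the LU call was lost (-0.38, adjusted p = 0.0517).

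The remaining genes of the V1 class, for the stalk subunits D, E1, F and H and the accessory protein Atp6ap1, were not called in any comparison. Atp6v1d, the D subunit of the central stalk, had the smallest difference of the sector, at 26.7, 34.9 and 34.1 FPKM in the ND, 37.3, 36.6 and 33.7 in the HFD, 28.3, 27.3 and 31.0 in the CLE and 29.6, 33.7 and 33.8 in the LU mice. The ND and HFD mice overlapped (log2 fold change 0.17 ± 0.11 SE, adjusted p = 0.207), and assembled variants held 98.6% of its FPKM. Atp6ap1, which helps the pump assemble, differed by 0.58 ± 0.08 (SE, adjusted p = 1.49e-04), just under the fold threshold. Atp6ap1 was called higher with the HFD in 9 of 25 alternatives, of which 3 were fits with 1 library left out. Over 25 alternatives its log2 fold change ran from 0.36 to 0.69. Atp6v1e1, Atp6v1f and Atp6v1h lay between 0.26 and 0.38. The log2 fold changes of the V-ATPase genes for HFD against ND thus ran from 0.17 for Atp6v1d to 1.67 for Atp6v1b2 and to 6.07 for Atp6v0d2. The deposited FPKM are scaled by length, and no test of the difference between subunits was made.

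The supplemented mice did not reach the ND level in every gene. In CLE against ND mice, 6 of the 49 genes were called higher and 0 lower, where 2.11% of all genes tested were called higher, and the median log2 fold change was 0.29. These were Laptm5, Ctss, Lgmn, Man2b1, Lipa and Atp6v0d2. The number was 2 without ND mouse 2, 3 without CLE mouse 4 and 9 without CLE mouse 2, and 0 genes were called when only the groups compared were fitted. In LU against ND mice 17 were called higher and 0 lower, with a share of 4.98% over all genes tested and a median of 0.47, and the number was 10 without LU mouse 8 and 11 without ND mouse 2. Npc1 was the gene with a lower mean in LU than in ND mice. The largest were Atp6v0d2 at 3.60 ± 0.52 (SE, adjusted p = 0.00189) and Ctss at 2.19 ± 0.31 (SE, adjusted p = 0.00186). For CLE against ND the same genes were at 2.49 ± 0.52 (SE, adjusted p = 0.0229) and 1.53 ± 0.31 (SE, adjusted p = 0.0215).

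The extract and the flavonoid were not matched in dose, and no lysosomal gene was called between CLE and LU mice. Over all genes tested, 0.00782% (1 gene) were called in either direction. The CLE mean was below the LU mean in 45 of the 49 genes, with a median log2 fold change of -0.18 beside -0.03 for all genes tested. In limma, 5 of the 49 had an unadjusted p under 0.05, beside 5.22% of all genes tested. The lowest adjusted p of the 49 was 0.898 in limma. For 37 of the 49 the 95% interval of the difference lay within the 1.5-fold threshold in both directions. The interval was widest for Atp6v0d2, at -2.25 to 0.03 around -1.11. For Ctss it was -1.34 to 0.03 around -0.66 and for Lgmn -0.77 to -0.07 around -0.42, so larger differences in these genes were not shown to be absent. The 7 genes called lower with CLE and not with LU (Lamp1, Tpp1, Manba, Naglu, Gm2a, Npc2 and Atp6v0c) were therefore not shown to differ between the supplements. The means rose in the order ND, CLE, LU and HFD in 39 of the 49 genes. The share of all genes with this order, or with a CLE mean below the LU mean, was not counted.

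Within each supplemented group, 1 mouse was the highest for most lysosomal genes. CLE mouse 11 was the highest of the CLE mice in 39 of the 49 genes (79.6%), and in 40.7% of all genes tested. LU mouse 8 was the highest LU mouse in 38 of the 49 (77.6%), and in 37.5% of all genes. In the ND group, mouse 2 was the lowest in 30 of the 49 (61.2%), beside 34.1% of all genes. It is also the ND mouse whose label lacks the letter R. The median log2 fold change of the 49 genes for HFD against ND, 0.94 with all libraries, was 0.86 without ND mouse 2. Without the libraries with the letter R, which leaves ND mouse 2 alone in its group, it was 1.12. The median log2 ratio of the 49 genes to the ND mean was 0.18, 0.25 and 0.44 in the CLE mice, 0.36, 0.38 and 0.62 in the LU mice and 0.95, 0.87 and 0.98 in the HFD mice. CLE mouse 11 and LU mouse 8 thus had the highest medians of their groups, and both stayed below every HFD mouse.

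The macrophage markers moved alongside the lysosomal genes. The median log2 ratio of the 10 markers to the ND mean was 2.58, 2.52 and 2.45 in the HFD, 0.59, 0.76 and 1.11 in the CLE and 1.23, 1.09 and 1.29 in the LU mice, so that CLE mouse 11 and LU mouse 8 were again the highest of their groups. All 10 markers were called lower with CLE (median log2 fold change -1.80) and all 10 with LU (-1.44) against HFD. Adgre1, which encodes the macrophage antigen F4/80, was at 7.80, 11.5 and 7.34 FPKM in the ND, 164, 131 and 143 in the HFD, 15.9, 20.1 and 31.9 in the CLE and 33.3, 30.7 and 43.0 in the LU mice. Of the 8 adipocyte markers, 5 were called lower and 1 (Lep, the leptin gene) higher with the HFD. Against HFD, 5 were called higher with CLE and 2 with LU, while Lep was called lower with CLE (-1.08) and with LU (-1.18). Of 3 mast cell markers, Cpa3 and Mcpt4 were called higher with the HFD and lower with CLE and with LU, and Kit was called lower with the HFD. Of 4 mesothelial markers, 3 were called lower with the HFD (median log2 fold change -1.46) and 0 were called with CLE or LU against HFD. Among 4 endothelial markers, 0 were called with the HFD, while 1 was called higher with CLE and 2 with LU against HFD. Among 5 progenitor and fibroblast markers, only Col1a1 was called in these comparisons, higher with the HFD and lower with CLE and with LU. T cell markers were under the expression filter in all cases. The part of cell composition in the lysosomal differences was not tested.

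**Figure D4:**
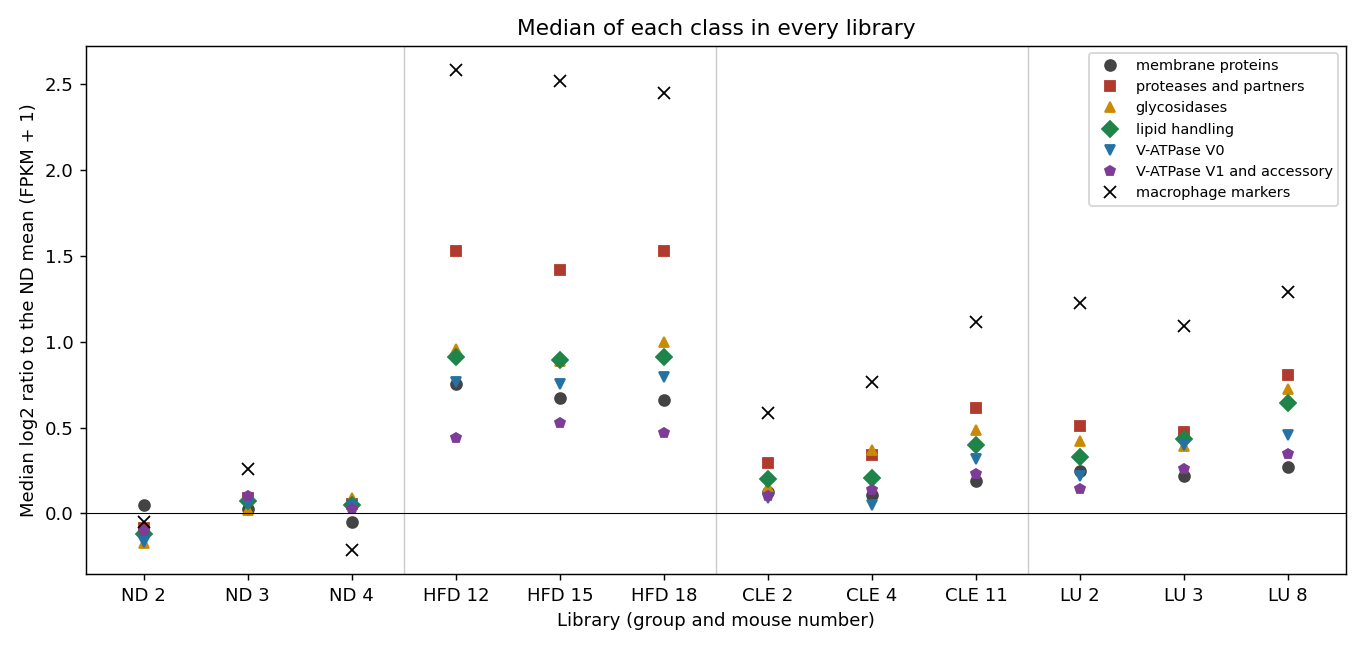
Median log2 ratio (FPKM + 1) to the ND mean for each class of lysosomal genes and for 10 macrophage markers in each of the 12 libraries. In every HFD mouse the proteases and partners (1.42 to 1.53) lie above the other lysosomal classes, and in the CLE and LU groups mouse 11 and mouse 8 are the highest for every class.

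Other genes of the lysosome, taken from a list of 63 that are not among the 49, had a smaller median shift. The set and the list were chosen with earlier results of these data known, and the difference between them was not tested. Of the 61 tested, 26 were called higher with the HFD, beside 14.9% of all genes tested, and 1 lower. Their median log2 fold change was 0.39. Against HFD, 19 were called lower with CLE and 19 with LU, beside 10.2% and 7.67% of all genes tested. Galns had no row, and Atp6v1b1 was at 0 and was not tested. The 5 largest changes with the HFD were those of Cd68, a lysosomal glycoprotein that is also one of the macrophage markers, at 4.08 ± 0.29 (SE, adjusted p = 1.20e-06), Slc11a1, a metal ion transporter of phagosomes, at 2.76 ± 0.25 (SE, adjusted p = 5.35e-06), Pld3, a nuclease, at 2.73 ± 0.21 (SE, adjusted p = 2.04e-06), Dnase2a, the acid DNase, at 2.15 ± 0.18 (SE, adjusted p = 3.81e-06), and Tcirg1 at 2.13 ± 0.25 (SE, adjusted p = 3.62e-05). Tcirg1 encodes the a3 subunit of the V-ATPase, known from osteoclasts, and was at 26.8, 23.9 and 30.3 FPKM in the ND, 121, 109 and 136 in the HFD, 28.3, 36.5 and 61.1 in the CLE and 45.4, 44.5 and 71.9 in the LU mice. The HFD mice were again separate from the others. The gene called lower was Acp5, the tartrate-resistant acid phosphatase of osteoclasts and macrophages, at 191, 194 and 203 FPKM in the ND, 129, 118 and 118 in the HFD, 170.5, 160.5 and 165 in the CLE and 149, 172 and 165 in the LU mice, for a difference of -0.68 ± 0.08 (SE, adjusted p = 3.49e-05). Acp5 thus moved against Ctsk, Atp6v0d2 and Tcirg1, all of which are also known from osteoclasts.

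Of the 4 transcription factors of the TFEB family, Mitf, Tfeb and Tfec were called higher with the HFD and Tfe3 was not (log2 fold change 0.50 ± 0.13 SE, adjusted p = 0.00728). Tfeb was at 7.21, 5.28 and 6.38 FPKM in the ND, 13.9, 12.9 and 13.7 in the HFD, 5.53, 5.55 and 7.48 in the CLE and 7.22, 6.18 and 8.83 in the LU mice. Its CLE and LU mice differed from the ND mice by -0.02 and 0.20 and were not called against them, and Tfeb changed by 1.00 ± 0.14 (SE, adjusted p = 1.50e-04) with the HFD, -1.02 ± 0.14 (SE, adjusted p = 2.85e-04) with CLE and -0.80 ± 0.14 (SE, adjusted p = 0.00216) with LU. Mitf was at 7.95, 5.62 and 4.76 FPKM in the ND, 18.2, 13.8 and 12.9 in the HFD, 6.86, 7.52 and 7.09 in the CLE and 6.64, 6.51 and 6.39 in the LU mice. Mitf changed by 1.18 ± 0.15 (SE, adjusted p = 7.94e-05), -0.96 ± 0.15 (SE, adjusted p = 7.25e-04) and -1.07 ± 0.15 (SE, adjusted p = 6.34e-04) in the same comparisons. Tfec, at 1.32 FPKM or less in every library, was called higher with the HFD at 0.70.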

How the data were processed

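RNA-seq libraries (paired-end, eWAT, 12 mice in 4 groups) were used. Per the labels, the authors processed the reads with CASAVA 1.8.2, Bowtie2 2.2.3, TopHat2 2.0.12 and Cufflinks 2.2.1. The deposited table holds FPKM for 152210 transcripts; it carries no depth, so counting intervals cannot be given. Of its 15 FPKM columns, 3 belong to no sample here and were left out, as were the authors' own comparisons. ND mouse 4 was taken from the column headed MD4, from its number, letter R and position. The build of the files is not given in the sources used here.

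Transcripts were placed in genes by Ensembl identifier with GENCODE M21 (GRCm38), where 76916 of 78786 annotated transcripts were found, 87.6% of them at identical ends. Annotated transcripts and assembled ones that match them or vary their junctions were summed (142603 transcripts, 22969 genes). Genes reaching 1 FPKM in 3 or more libraries (12787) entered a single limma 3.58.1 fit (R 4.3.3) of log2(FPKM + 1) with 1 coefficient per group and no covariate. The study tested read counts, which are not analysed here. The scripts were tested on simulated data. Named genes are, per class, the 3 with the largest and the 1 with the smallest change in HFD against ND, the 5 largest of the other lysosome genes, and genes that went against their class; the transcription factors, Acp5 and the remaining genes with single values were named after their values were seen. Members and lists were chosen with earlier results of these data known. Python 3.11.15, pandas 2.3.3, numpy 2.4.6 and matplotlib 3.10.9 made tables and plots. Alternatives covered the pseudocount, filter, scaling, transcripts summed, groups fitted, the letter R, the mouse number as a block and each library left out; leaving out the libraries with the letter R, and the deposited gene names, were added after the data were seen.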

Additional observations from a re-analysis of the deposited data

How the results depend on the processing

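Under 25 alternatives the number of genes called stayed between 31 and 33 for HFD against ND, 27 and 31 for CLE against HFD, 20 and 26 for LU against HFD, and at 0 for CLE against LU. Of the calls, 29 of 32, 24 of 30 and 18 of 23 were made in all settings, where Glb1 counts as lost because it has no value under the deposited gene names (nor has Mcoln1), and 31, 27 and 22 in every fit that left out 1 library. The sources used here do not say whether the mouse numbers pair animals across groups, and their consensus correlation of 0.0871 cannot decide it. With the mouse number as a replicate block, the counts were 32 for HFD against ND, 30 and 23 for CLE and LU against HFD, 7 and 17 for CLE and LU against ND, and 0 for CLE against LU. For CLE against ND, 0 genes instead of 6 were called when only the groups compared were fitted, and 2 (1 higher and 1 lower) without the 4 libraries with the letter R, which leaves 1 ND mouse that is assumed to vary like the other groups. With 1 library left out, 2 to 9 genes were called for CLE against ND and 10 to 20 instead of 17 for LU against ND. The direction turned for Mcoln1 with CLE (0.018 under quantile normalization, -0.13 to 0.065 with 1 library left out) and with LU (0.015 under quantile normalization, 0.0058 with the letter R as a covariate, -0.11 to 0.084 with 1 library left out). It also turned for Atp6v0d1 with LU (0.12 without assembled variants, 0.046 with the highest transcript alone, 0.020 without the libraries with the letter R, -0.090 to 0.020 with 1 library left out). The cause was not tested. Under every scaling the median of all genes lay within 0.087 of 0 on the log2 scale. The effect of depth could not be examined.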
